A study of Mus musculus with 8 samples.

Results

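The genes *Vat1l*, *Sh2d4a*, *Rab37*, *Nptx2* and *Lmcd1* had the largest called falls in molar mesenchyme of mice with *Ezh2* deleted by *Osr2-Cre*, and they are described here in each of the 8 libraries. They were chosen by their measured difference between the groups. The rule took genes called lower at an adjusted p under 0.05 with no overlap between the 4 libraries with and the 4 without Cre, and kept the 5 with the most negative difference in mean log2(value + 1). They are 5 of the 14854 genes tested and of the 20926 genes in the table. Their difference between the groups is therefore given as a description, with no test.

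The study asked how Ezh2, the enzyme of Polycomb repressive complex 2 that methylates histone H3 at lysine 27, acts in molar root patterning. Mesenchyme was dissected from molars of C57BL/6 mice at postnatal day 3 after the epithelium had been removed. The 4 control libraries came from Ezh2 fl/fl mice, which carry floxed *Ezh2* alleles and no Cre. The other 4 came from *Osr2-Cre;Ezh2 fl/fl* mice (Osr2KI-Cre;Ezh2fl/fl in the labels), in which Cre from the *Osr2* locus deletes the floxed segment in the mesenchyme of the tooth and in the surrounding jaw bone, while epithelial cells of the tooth keep both alleles. These are called mutant from here on. The methods describe a mixed background, although the labels give C57BL/6, and neither source says how many mice went into a library, so p-values measure the spread between these libraries only.

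The genes have different known roles. *Vat1l* encodes a relative of the vesicle amine transport protein Vat1 and is known from subsets of neurons. *Sh2d4a* encodes an adaptor with an SH2 domain, a fold that binds phosphorylated tyrosine. *Rab37* encodes a small GTPase of regulated exocytosis, first studied in mast cells. *Nptx2* encodes a secreted neuronal pentraxin that clusters AMPA-type glutamate receptors at synapses. *Lmcd1* encodes a LIM domain protein that restrains the transcription factor Gata6 and is known from heart and muscle. *Dspp*, which encodes the main non-collagenous protein precursor of dentin, served as the reference for odontoblasts, the dentin-forming cells at the rim of the papilla. It is also made for a time by the neighbouring young ameloblasts.

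The values are read amounts scaled between libraries, with no correction for gene length, and the estimated depth was 48.3 to 68.8 M reads per library. *Ezh2* was 38.3 to 55 in the controls and 23.2 to 36 in the mutant libraries, with a log2 difference of -0.46 ± 0.16 (standard error) and an adjusted p of 0.235 in limma. *Xist* and the Y-linked *Ddx3y* were both present in 4 libraries, *Ddx3y* without *Xist* in 2, and *Xist* without *Ddx3y* in 2, which were mutant libraries 2 and 3. Transcripts of ameloblasts, the enamel-forming epithelial cells, were present in every library despite the dissection. *Amelx* ran from 316 to 16250, with high values in control libraries 3 and 4 and in mutant library 3. In bulk tissue, fewer cells of a type and less RNA per cell cannot be told apart.

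On GRCm38 (mm10), in GENCODE release M21, all 5 genes are protein-coding and lie on the plus strand. *Vat1l* (ENSMUSG00000046844) lies at chr8:114205612-114374071 and *Sh2d4a* (ENSMUSG00000053886) at chr8:68276567-68347699. *Rab37* (ENSMUSG00000020732) lies at chr11:115091431-115162236, *Nptx2* (ENSMUSG00000059991) at chr5:144545902-144557478 and *Lmcd1* (ENSMUSG00000057604) at chr6:112273758-112330425. None shares a chromosome with *Osr2*, the site of the Cre knock-in on chromosome 15, while *Lmcd1* shares chromosome 6 with *Ezh2*.

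Promoter windows of RefSeq on GRCm38.p6 were found for *Vat1l* and *Lmcd1*. The 250 bases before the RefSeq start are shown because dense CG dinucleotides are a known feature of Polycomb targets in mammals. Both are plus-strand, at chr8:114205390-114205639 and chr6:112273508-112273757, and each CG is in capitals. The RefSeq start of *Vat1l* lies downstream of the GENCODE start, so the last bases shown lie inside the gene as placed above.
Vat1l: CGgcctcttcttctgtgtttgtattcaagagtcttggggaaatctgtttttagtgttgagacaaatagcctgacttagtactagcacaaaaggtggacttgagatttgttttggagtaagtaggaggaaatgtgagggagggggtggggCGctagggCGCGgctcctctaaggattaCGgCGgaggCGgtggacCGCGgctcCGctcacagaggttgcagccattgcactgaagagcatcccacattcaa
Lmcd1: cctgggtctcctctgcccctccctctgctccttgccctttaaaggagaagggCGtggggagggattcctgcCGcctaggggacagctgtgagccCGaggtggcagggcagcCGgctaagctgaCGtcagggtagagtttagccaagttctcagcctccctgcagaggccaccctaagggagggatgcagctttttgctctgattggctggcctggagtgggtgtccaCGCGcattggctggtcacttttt

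Over the full window of 300 bases, which adds 50 bases after the start, *Vat1l* had 14 CG and *Lmcd1* 12. The median over 32817 RefSeq windows was 7, with quartiles of 3 and 20, so both lay in the middle of the distribution, above 63.7% and 60.4% of windows. Neither window held TGTGGT, the core of the Runx motif, on either strand, which 16.8% of windows did, or TATAAA on the plus strand, which 8.32% did. The E-box CANNTG, which reads the same on both strands, occurred in *Lmcd1* at 1 position and not in *Vat1l*, against 72.3% of all windows.

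*Vat1l* had the largest fall of the 5 on the log2(value + 1) scale, an order that turns without the pseudocount, where *Nptx2* (-1.97) and *Sh2d4a* (-1.73) had larger log2 differences than *Vat1l* (-1.7). Control libraries 1 to 4 had values of 19.6, 18.8, 21.9 and 11.7, and mutant libraries 1 to 4 had 3.75, 7.14, 3.68 and 8.63. Control library 4 stood below the other controls and was 1.35 times the highest mutant library, the narrowest gap among the 5 genes. The means were 18 ± 4.42 and 5.8 ± 2.49 (SD, n = 4 each), a ratio of 3.1 of control over mutant, and the log2 difference was -1.52 ± 0.27 (standard error).

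*Sh2d4a* was 7.04, 7.43, 6.84 and 5.63 in the controls and 2.58, 1.29, 2.42 and 2.05 in the mutant libraries. The lowest control was 2.18 times the highest mutant library. Library 2 was the lowest of the mutant group, whereas the other 4 genes were lowest in library 3. The means of 6.73 ± 0.777 and 2.08 ± 0.574 (SD, n = 4 each) stood at a ratio of 3.23, with a log2 difference of -1.34 ± 0.15.

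Before division by length, *Rab37* had the highest values of the 5 genes, with 48.8, 40.5, 27.2 and 35.6 in the controls and 17.4, 17.6, 12.7 and 14 in the mutant libraries. Library 3 was the lowest within each group, and the lowest control was 1.55 times the highest mutant library. The means were 38 ± 9.06 and 15.4 ± 2.44 (SD, n = 4 each), a ratio of 2.47, with a log2 difference of -1.23 ± 0.17.

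*Nptx2* had the lowest values and the tightest controls, at 2.9, 3.39, 2.94 and 3.04, which is a coefficient of variation of 7.29%. In the mutant libraries it was 0.72, 1.17, 0.453 and 0.981, or 31 to 76 estimated reads. The lowest control was 2.48 times the highest mutant library, the widest gap of the 5. The means of 3.07 ± 0.224 and 0.83 ± 0.312 (SD, n = 4 each) differed by a ratio of 3.7, the largest of the 5, while the log2 difference was -1.17 ± 0.13. That scale compresses low values, and without the pseudocount the log2 difference of *Nptx2* was -1.97.

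*Lmcd1* was 16.9, 14.9, 12.1 and 16.5 in the controls and 7.05, 6.87, 4.81 and 7.06 in the mutant libraries. Of the latter, 3 libraries were nearly equal and library 3 was lower. The means were 15.1 ± 2.18 and 6.45 ± 1.1 (SD, n = 4 each), with a ratio of 2.35 and a log2 difference of -1.12 ± 0.14.

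**Figure D1:**
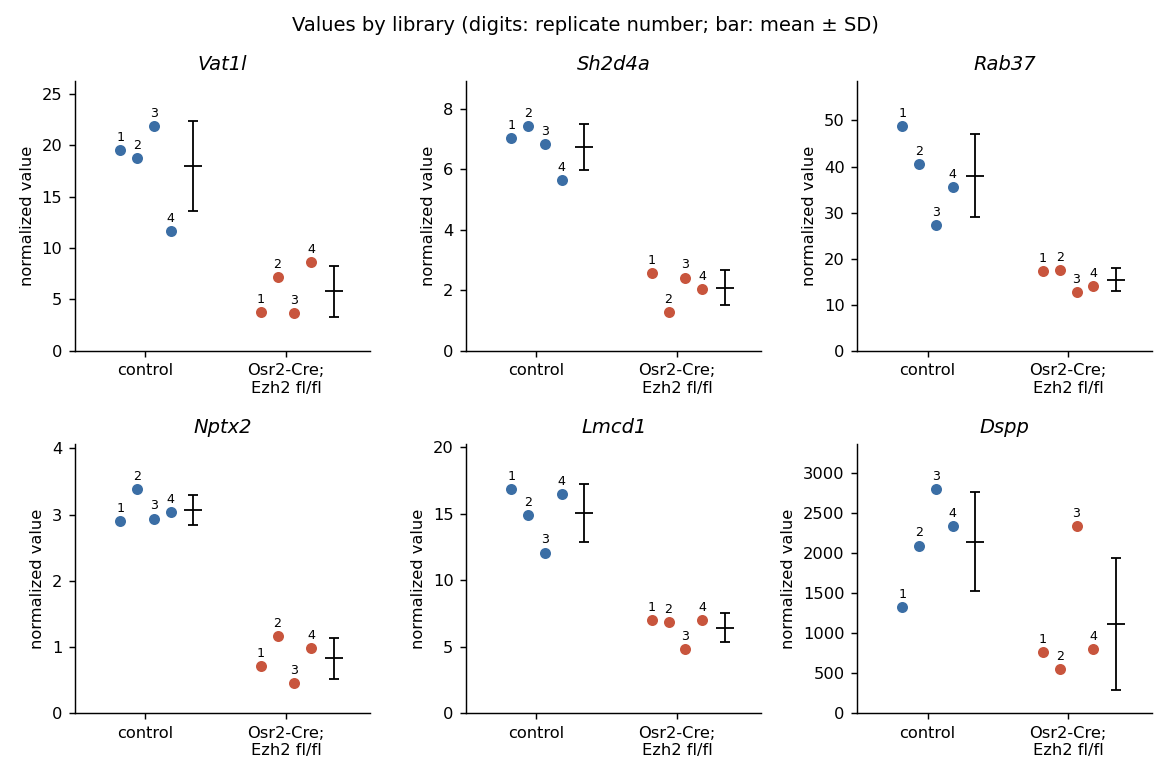
Normalized value of the 5 genes and of *Dspp* in each control (blue) and *Osr2-Cre;Ezh2 fl/fl* (mutant, red) library, on linear axes from 0, with replicate numbers and mean ± SD beside the points (n = 4 each). The groups are apart for the 5 genes, which were chosen for this, and overlap for *Dspp* through mutant library 3.

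Placed per kilobase of exon, so that genes can be compared, mean control levels were 8.73 ± 1.26 for *Lmcd1*, 7.13 ± 1.7 for *Rab37*, 3.3 ± 0.809 for *Vat1l*, 2.47 ± 0.285 for *Sh2d4a* and 1.21 ± 0.0883 for *Nptx2* (value per kb, SD, n = 4). The ranges of *Lmcd1* and *Rab37* overlapped, as did those of *Vat1l* and *Sh2d4a*, so neither pair was ordered beyond its spread. *Dspp* was at 483 per kb in the controls.

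Separation of the groups was part of the choice. Of all genes tested, 2.77% had every mutant library below every control, and 0.512% were called lower at an adjusted p under 0.05. *Lmcd1*, the last gene inside the limit, had a log2 difference of -1.12. The next in order were *Gabra3* (-1.07), *Hist2h2aa2* (-1.02), *Slitrk6* (-0.99), *Tmem158* (-0.98) and *Tspan8* (-0.96). A further 27 genes had a difference at least as negative as *Lmcd1* but did not meet the rule. The groups overlapped for 25 of these, among them *Dspp* and the enamel genes *Enam*, *Amelx*, *Ambn* and *Mmp20*.

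For *Dspp* itself, controls 1 to 4 had 1329, 2091, 2799 and 2334, and mutants 1 to 4 had 770, 556, 2328 and 799. In the latter group, 3 libraries lay below all controls and library 3 lay within the control range. The log2 difference was -1.13 ± 0.41 with an adjusted p of 0.256 in limma. Without mutant library 3 it was -1.56 ± 0.25 with an adjusted p of 0.0299. That was the only call among the 8 fits that each left out 1 library. In the other fits adjusted p ran from 0.172 to 0.597 (limma).

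The order of the libraries differed between *Dspp* and the 5 genes. In mutant library 3, which had *Dspp* close to that of control library 4, *Vat1l*, *Rab37*, *Nptx2* and *Lmcd1* were at their lowest of all 8 libraries. Per 1000 units of *Dspp*, *Lmcd1* was 12.7, 7.14, 4.33 and 7.08 in the controls and 9.15, 12.4, 2.07 and 8.84 in the mutant libraries. These ratios overlapped between the groups, with library 3 the lowest by far. For *Sh2d4a* the ratios were 5.29, 3.55, 2.44 and 2.41 against 3.35, 2.32, 1.04 and 2.57, again with library 3 the lowest.

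**Figure D2:**
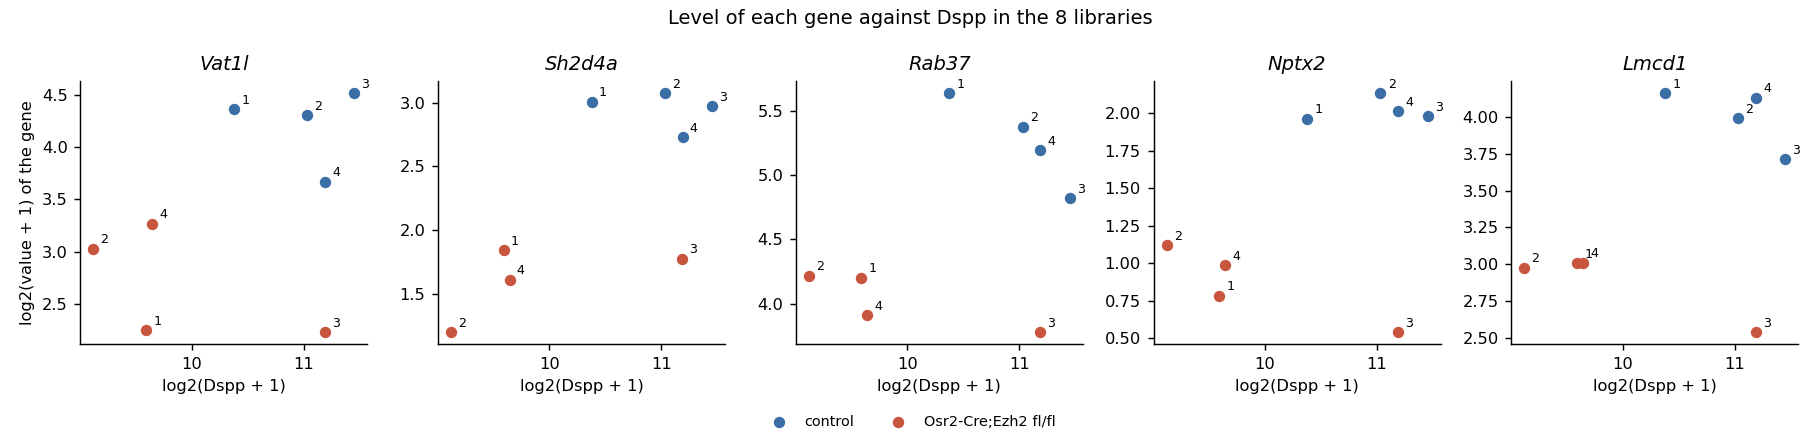
Level of each of the 5 genes, log2(value + 1), against log2(*Dspp* + 1) in control (blue) and *Osr2-Cre;Ezh2 fl/fl* (mutant, red) libraries, each point 1 library with its replicate number. mutant library 3 sits among the controls on the *Dspp* axis and with its own group on the vertical axis.

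Variation within the groups was followed by adding log2(*Dspp* + 1) to the limma model. The choice of the genes used the spread within groups, through the adjusted p and the lack of overlap, though not *Dspp*, so these slopes are not fully independent of it. The slope, in log2 units of the gene per log2 unit of *Dspp*, was -0.3 ± 0.2 for *Vat1l*, -0.31 ± 0.1 for *Rab37*, -0.2 ± 0.09 for *Nptx2* and -0.26 ± 0.08 for *Lmcd1*. *Sh2d4a* had a positive slope of 0.13 ± 0.12. None of the 5 passed after adjustment in limma, with adjusted p-values of 0.407, 0.14, 0.223, 0.115 and 0.544 for *Vat1l*, *Rab37*, *Nptx2*, *Lmcd1* and *Sh2d4a*, and neither did any other gene apart from *Dspp* itself (0% of 14853). At an unadjusted p under 0.05, *Rab37*, *Nptx2* and *Lmcd1* passed in limma, 3 of 5, beside 22.4% of the other genes tested. Without mutant library 1, 1802 genes passed after adjustment, and 21 without control library 4, with none of the 5 among them in either case.

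At equal *Dspp*, the log2 difference between the groups was -1.86 ± 0.34 for *Vat1l*, -1.19 ± 0.2 for *Sh2d4a*, -1.58 ± 0.17 for *Rab37*, -1.39 ± 0.14 for *Nptx2* and -1.41 ± 0.13 for *Lmcd1* (standard error, no test). The fall was thus larger than without the term for 4 of the genes and smaller for *Sh2d4a*. For *Vat1l* and *Sh2d4a* the shift was no larger than about the standard error. Log2(*Dspp* + 1) was 10.38 to 11.45 in controls, 11.19 in mutant library 3 and 9.12 to 9.64 in the other mutant libraries. Values at equal *Dspp* therefore rest on mutant library 3 or on extrapolation. Without mutant library 3, the value at equal *Dspp* became -2.14 ± 0.26 for *Rab37* and -1.17 ± 0.28 for *Nptx2*. It was -1.6 ± 0.72 for *Vat1l*, -1.19 ± 0.42 for *Sh2d4a* and -1.38 ± 0.27 for *Lmcd1*. Standard errors were wider for each gene. The slopes were then -0.15 ± 0.42 for *Vat1l*, 0.13 ± 0.25 for *Sh2d4a*, -0.64 ± 0.15 for *Rab37*, -0.07 ± 0.17 for *Nptx2* and -0.25 ± 0.16 for *Lmcd1*. The slope of *Rab37* was thus steeper and those of *Vat1l* and *Nptx2* flatter than with all 8 libraries, while those of *Lmcd1* and *Sh2d4a* were nearly the same.

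*Dspp* moved with enamel transcripts as well. Its slope within groups on enamel transcripts (*Enam*, *Amelx* and *Ambn*, mean log2) was 0.26 ± 0.06 (adjusted p = 0.0476 in limma), where 3.52% of other genes were called. At equal enamel transcripts its log2 difference between the groups was -0.62 ± 0.26. For the 5 genes, slopes on enamel transcripts lay between -0.12 ± 0.06 for *Vat1l* and 0 ± 0.04 for *Sh2d4a*, and the smallest adjusted p was 0.132, for *Rab37* (limma). With enamel transcripts held equal, the log2 differences were -1.76 ± 0.25, -1.34 ± 0.17, -1.42 ± 0.14, -1.26 ± 0.14 and -1.24 ± 0.13 for *Vat1l*, *Sh2d4a*, *Rab37*, *Nptx2* and *Lmcd1*.

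The odontoblast markers, *Dspp* included, did not move as 1 group. Of the 9 listed markers tested, 0 were called in either direction by limma, beside 0.512% of all genes called lower and 1.56% called higher. Their median log2 difference was -0.31, against 0.013 over all genes tested, with 6 of 9 negative beside 45.9% of all genes tested. *Phex*, an endopeptidase gene of mineralizing cells, was 109 ± 22.9 in control and 56.7 ± 24 in mutant molars (SD, n = 4 each), with a log2 difference of -0.98 ± 0.26 and an adjusted p of 0.1. *Dmp1*, a dentin and bone matrix protein gene, had -0.35 ± 0.21. *Smpd3*, a sphingomyelinase gene needed for dentin mineralization, had 0.09 ± 0.23, and *Notum*, a Wnt-inactivating enzyme gene, had 0.55 ± 0.2. Without mutant library 3, *Dspp* and *Phex* were called lower (adjusted p = 0.0299 and 0.024) and *Notum* higher (adjusted p = 0.0332). *Dmp1* was not called there and had a log2 difference of -0.2. Each of these calls was made in only this 1 of the 8 fits that left out 1 library. Over the 8 fits, adjusted p reached 0.597 for *Dspp*, 0.303 for *Phex* and 0.564 for *Notum* (limma). Over all genes, the fit without mutant library 3 called 172 higher and 59 lower. Within groups, 6 of the 8 other markers had a negative slope on *Dspp*, beside 49.7% of all genes tested, including *Smpd3* (-0.43 ± 0.12), and *Phex* (0.51 ± 0.13) and *Wnt10a* (0.32 ± 0.12) had positive slopes. The smallest adjusted p of these slopes was 0.0938.

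Against the mean log2 level of these 8 markers without *Dspp*, *Vat1l* differed from the other 4 genes in its values. Its slope was 2.37 ± 0.49, with an unadjusted p of 0.00103 and an adjusted p of 0.187 in limma, and its log2 difference at equal marker level was -1.15 ± 0.17. The slopes of *Sh2d4a*, *Rab37*, *Nptx2* and *Lmcd1* were 0.1 ± 0.53, 0.29 ± 0.59, 0.61 ± 0.41 and 0.24 ± 0.49. Their log2 differences were -1.33 ± 0.18, -1.19 ± 0.2, -1.07 ± 0.14 and -1.08 ± 0.16, close to those without the term. *Vat1l* was thus 1 of 5 at an unadjusted p under 0.05, where 15.9% of the genes outside the marker list passed. Whether the slope of *Vat1l* differs from those of the other genes was not tested. The marker level ran only from 6.52 to 7 over the 8 libraries, so a slope per log2 unit reaches beyond that range. It was lowest in mutant library 3 (6.52) and control library 4 (6.61), both high in enamel transcripts. No fit with a library left out was run for these slopes.

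**Figure D3:**
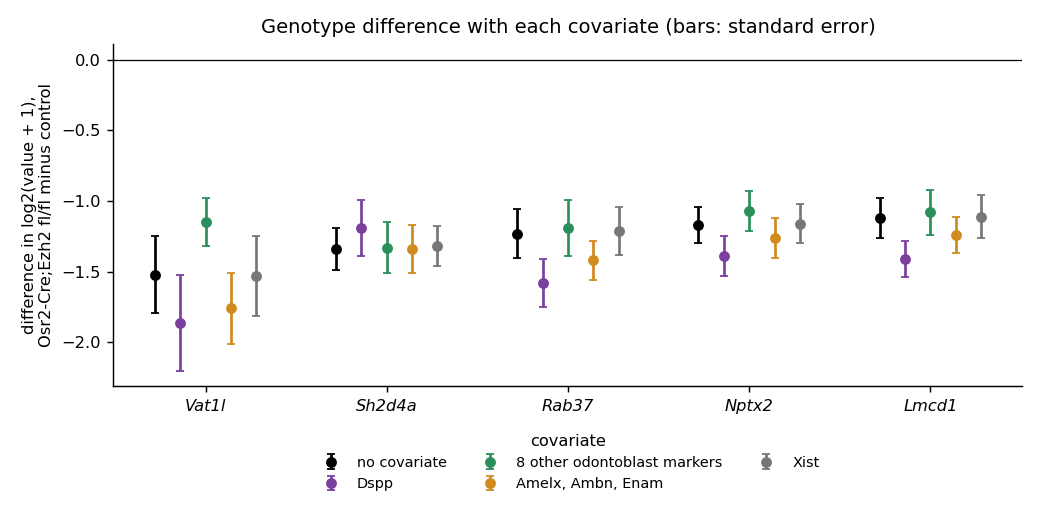
Difference in mean log2(value + 1) between mutant and control for the 5 genes in limma models with no covariate or with 1 covariate, with standard errors (8 libraries). All estimates lie between -1.86 and -1.07, below 0. The choice of the genes fixed that direction in the model with no covariate, and the other models use the same libraries.

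The known cell types of these genes were followed through marker lists, whose counts stand beside 0.512% of all genes tested called lower, 1.56% called higher and 45.9% with a negative difference. At these shares, a list of a few genes with 0 called is close to the background. Mast cell markers, of interest for *Rab37*, were near the floor. *Fcer1a* and *Ms4a2* are not in the table, *Mcpt4* and *Cma1* did not pass the filter, and *Cpa3* was 1.22 ± 0.795 in control and 0.983 ± 0.699 in mutant molars (SD, n = 4 each). The summed list was 1.09 to 8.21 in the controls and 1.29 to 7.52 in the mutant libraries. Neuron markers, of interest for *Nptx2* and *Vat1l*, had 0 of 3 tested genes called and a median log2 difference of -0.22, with *Snap25* and *Prph* under the filter. *Snap25*, a synaptic vesicle fusion gene, was 0.0344 to 0.275 in the controls and 0.336 to 0.455 in the mutant libraries, and *Prph*, a neuronal filament gene, was 0.155 ± 0.0151 and 0.194 ± 0.0173 (SD, n = 4 each). For muscle, of interest for *Lmcd1*, skeletal markers had 0 of 3 and smooth muscle and pericyte markers 0 of 6 called, with medians of -0.43 and -0.37. Summed skeletal muscle markers were 7.63 to 34.1 in the controls and 2.9 to 11.8 in the mutant libraries. The highest sum was that of control library 4 alone, and the other 3 controls lay within the mutant range. Their part in the falls was not tested.

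Other lists are read against the same shares of all genes tested, 0.512% lower, 1.56% higher and 45.9% negative. Epithelial markers had 0 of 7 called, 7 of 7 negative and a median of -0.41. Enamel genes had 0 of 6 called and a median of -1.48, and endothelial markers 0 of 5 and a median of -0.24. Macrophage and leukocyte markers (0 of 4 called, median 0.07) and Schwann cell markers (0 of 3, median 0.1) were nearer to 0. Of the dental papilla and early mesenchyme list, 1 of 9 was called, *Enpp6*, which fell by 0.63 ± 0.13 on the log2 scale (adjusted p = 0.0455 in limma). That call held in 2 of 8 fits that each left out 1 library, without mutant library 3 among them (-0.73 ± 0.12, adjusted p = 0.0333). In the bone list 1 of 7 was called, *Ibsp*, the bone sialoprotein gene, which rose by 1.87 ± 0.17 (adjusted p = 0.00126). In the follicle and ligament list 1 of 5 was called, *Aspn* (asporin), which rose by 1.56 ± 0.33 (adjusted p = 0.0499), a call lost in each of the 8 fits without 1 library, where adjusted p ran from 0.0555 to 0.135.

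**Figure D4:**
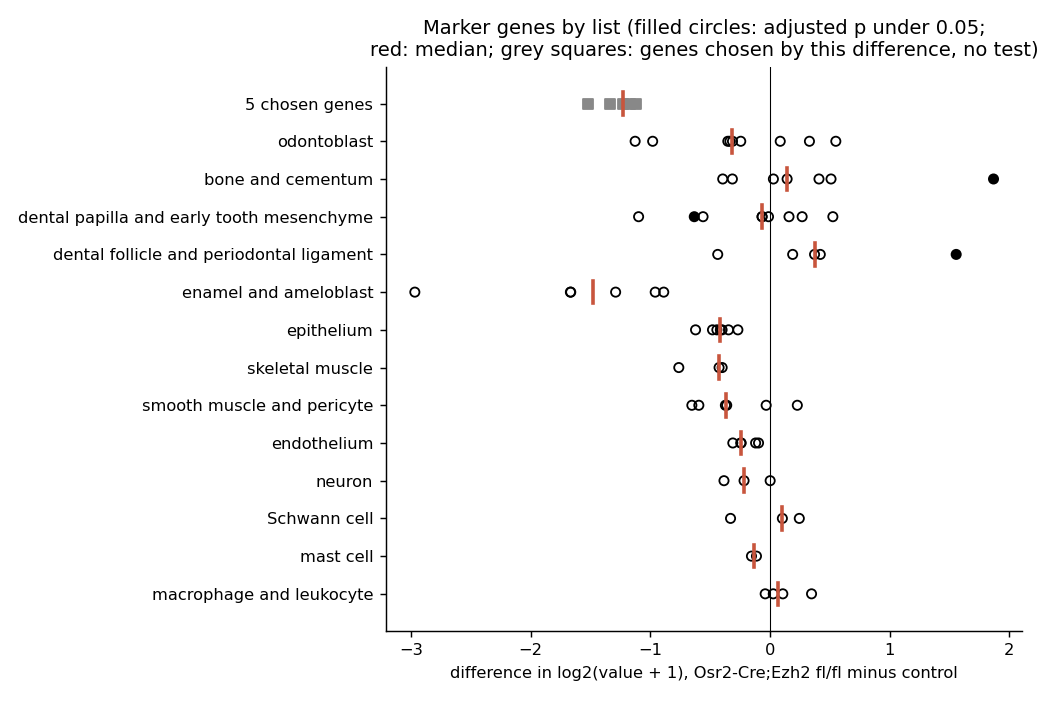
Log2 difference between mutant and control of tested markers in each cell type list (circles, filled where limma's adjusted p is under 0.05), with the list median as a red bar and the 5 chosen genes as grey squares. Odontoblast markers spread on both sides of 0, with *Dspp* at -1.13 and *Notum* at 0.55.

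Among relatives and partners of the 5 genes, 30 of 41 listed were tested, 2 were called higher and 0 lower, beside 1.56% and 0.512% of all genes tested, with a median log2 difference of 0.1. Both belong to the exocytosis list. *Rab3b*, a GTPase of regulated secretion like *Rab37*, moved the other way, with 23.8, 21.1, 18.1 and 23 in the controls and 43.3, 46.1, 52.3 and 58.3 in the mutant libraries. The groups did not overlap, and the log2 difference was 1.18 ± 0.12 (adjusted p = 0.00195 in limma). *Rims2*, which encodes a scaffold of the exocytic zone that binds Rab3, was low, at 0.441 ± 0.0935 and 1.43 ± 0.18 (SD, n = 4 each), with a log2 difference of 0.75 ± 0.1. It passed the filter only through the 4 mutant libraries, where it is high, so its groups had to differ and its call is not read as a result. Of the other 13 exocytosis genes tested, 0 were called. *Rab27a* and *Rab27b*, which serve lysosome-related and secretory granules, had -0.2 ± 0.19 and 0.1 ± 0.24.

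The closest relatives of the other genes were not called, beside 0.512% of all genes called lower and 1.56% higher, so that 0 called in lists this short is close to the background. *Vat1* was 62.8 ± 4.62 and 60.8 ± 8.01 (SD, n = 4 each; log2 difference -0.05 ± 0.1, adjusted p = 0.916 in limma). *Nptx1*, a second neuronal pentraxin, had 0.13 ± 0.18, and *Nptxr*, the pentraxin receptor gene, 0.09 ± 0.11. All 5 tested genes of the pentraxin and AMPA receptor list had positive differences, with 0 called, where 45.9% of all genes tested had negative ones. *Sh2d4b* did not pass the filter, at 0.336 to 0.504 in the controls and 0.452 to 0.637 in the mutant libraries. Among LIM domain genes and Gata factors listed with *Lmcd1*, 0 of 9 tested were called, with differences from -0.23 to 0.29. *Gata6* did not pass the filter, at 0.182 to 0.877 over all libraries.

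Neighbouring genes were compared to ask whether the falls extended beyond each gene. Within 200 kb of the 5 genes lay 30 genes of the table, of which 16 were tested, 1 was called lower and 0 higher, beside 0.512% and 1.56% of all genes tested, with a median log2 difference of 0.03. The gene called was *Slc9a3r1*, which encodes the scaffold protein NHERF1. It lies at chr11:115163341-115181181 on the same strand, 1.1 kb past the end of *Rab37*. It was 22.2 ± 2.31 in control and 14.3 ± 1.76 in mutant molars (SD, n = 4 each), with a log2 difference of -0.6 ± 0.11 and an adjusted p of 0.0236. The call held in 2 of 8 fits with 1 library left out, those without mutant libraries 1 and 3 (adjusted p = 0.0202 and 0.0469), and the largest adjusted p of the 8 was 0.0767. The log2 difference of *Slc9a3r1* stayed between -0.67 and -0.53. The other tested neighbours of *Rab37*, such as *Nat9* (0.15 ± 0.09) and *Tmem104* (-0.04 ± 0.16), were not called.

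Within the other loci, *Nudt7* and *Wwox* on either side of *Vat1l* had -0.08 ± 0.09 and 0.06 ± 0.1. *Csgalnact1*, which starts the chondroitin sulfate chain and lies 9.1 kb past *Sh2d4a* on the opposite strand, had -0.28 ± 0.18 (adjusted p = 0.595 in limma). The tested neighbours of *Nptx2* were *Baiap2l1* (0.51 ± 0.11, adjusted p = 0.0623), *Bri3* (0 ± 0.14) and *Tmem130* (0.19 ± 0.2). *Cav3*, the muscle caveolin gene, was the tested neighbour of *Lmcd1*, with 0.26 ± 0.11 (adjusted p = 0.347).

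Genes inside the members' spans are uncertain where reads were assigned without strand, which the sources used here do not state. *5031434C07Rik*, antisense within *Lmcd1*, was 0.933 to 1.56 in the controls and 0.47 to 0.826 in the mutant libraries. *Gm44193*, on the same strand within *Lmcd1*, was 0.395 to 0.535 and 0.171 to 0.271. Both were apart between the groups in the direction of *Lmcd1*, and without the filter their adjusted p was 0.105 and 0.0631 in limma. *Cd300lf*, on the opposite strand within *Rab37*, overlapped between the groups (0.244 to 0.588 and 0.373 to 0.947), as did the antisense *4933408N05Rik* within *Vat1l*, with at most 11 estimated reads. *Sh2d4a* holds the pseudogenes *Gm45739* and *Gm19170*, and no annotated gene overlaps *Nptx2*.

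**Figure D5:**
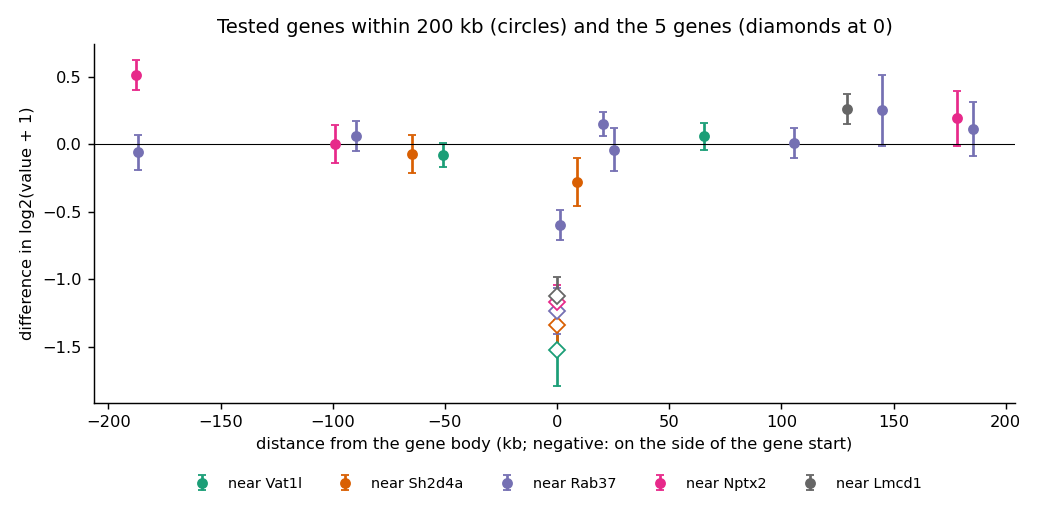
Log2 difference between mutant and control (standard error bars) of tested genes within 200 kb of each of the 5 genes, by distance in kb from the gene body, with the 5 genes as open diamonds at 0. Nearly all neighbours lie around 0, and *Slc9a3r1*, 1.1 kb from *Rab37*, lies at -0.6.

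Genes with the most similar pattern were found by Pearson's r of log2(value + 1) over the 8 libraries, given as a description since the genotype difference is part of it. For *Lmcd1* these were *Slc9a3r1* (r = 0.98), *Shb* (0.978) and *Rab37* (0.97). *Rab37* was in turn most like *Rfk* (0.971), *Lmcd1* (0.97) and *Cadps2* (0.961). *Nptx2* was most like *Plxdc1* (0.971), *Rcan2* (0.968) and *Lmcd1* (0.963). *Sh2d4a* was most like *Slc6a13* (0.985), *Oxr1* (0.983) and *Cntn3* (0.98), and *Vat1l* most like *Depdc5* (0.982), *Supt16* (0.977) and *Snx14* (0.974). *Lmcd1* and *Rab37* thus appeared in each other's lists, *Lmcd1* also appeared in that of *Nptx2*, and *Vat1l*, *Sh2d4a* and *Nptx2* appeared in none. By deviations from the group means over the same 8 libraries, the 3 genes most like each of the 5 had genotype differences between -0.1 and 0.37, and none of the 5 was among them.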

How the data were processed

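RNA-seq was measured in 8 libraries of molar mesenchyme. Groups and replicate numbers were taken from sample titles. The submitters' processing notes name CASAVA 1.8.2, STAR 2.5.3a, Partek and mm10, whereas the paper's methods name TopHat and RPKM. The deposited values were used as a normalized signal, since they carry no gene-length factor, are never 0 and share a 75th percentile of about 38.46. Reads were estimated by dividing by the smallest value of that library and subtracting 1. The table holds 0 other per-sample columns.

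Limma 3.58.1 in R 4.3.3 (eBayes with trend) was fitted to log2(value + 1) for 14854 genes, those reaching a value of 1 in 4 or more libraries, with Benjamini-Hochberg adjustment, and tested on simulated data. Covariates were centred log2 levels. Understated changes of low genes follow from the pseudocount of 1. Coordinates are from GENCODE M21 and promoters from RefSeq (GRCm38.p6), read with Python 3.11.15 and pandas 2.3.3. Plots used matplotlib 3.10.9.

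The genes and lists were chosen with earlier results of these data known. Named genes are the 5 genes, *Dspp*, the listed markers and relatives, the next 5 falls, neighbours within 200 kb and the 3 most similar genes. *Dspp* and the enamel genes among larger falls, and genes within the spans, follow from the same lists. Alternatives were pseudocounts, filters, scalings, no trend, the replicate block, covariates and each library left out. Leaving out the 2 libraries without Y-linked transcripts and omitting the pseudocount were chosen after seeing the data.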

Additional observations from a re-analysis of the deposited data

Results flagged for a closer look

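Of 28 groups of 4 libraries examined, for the 5 genes and 9 odontoblast markers, 2 had a library far from the other 3 on the log2(value + 1) scale, where chance gives about 1.4. *Lmcd1* reached 4.81 in mutant library 3, while the other mutant libraries had 6.87 to 7.06. *Dmp1* reached 59.1 in control library 4, while the other controls had 87.8 to 94.6.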

How the results depend on the processing

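The log2 difference of the 5 genes stayed negative under every alternative run. The choice of the genes fixed that direction in the main fit, and the alternatives use the same data. With each library left out it ran from -1.71 to -1.37 (*Vat1l*), -1.42 to -1.2 (*Sh2d4a*), -1.38 to -1.1 (*Rab37*), -1.25 to -1.06 (*Nptx2*) and -1.21 to -1 (*Lmcd1*), and for *Dspp* from -1.56 to -0.87. A pseudocount of 0.1 gave -1.83 for *Nptx2* and -1.68 for *Sh2d4a*, none gave -1.97 and -1.73, and a pseudocount of 5 gave -0.47, -0.73 and, for *Lmcd1*, -0.81. The *Dspp* term moved *Lmcd1* to -1.41, *Nptx2* to -1.39 and *Rab37* to -1.58. With that term, a pseudocount of 0.1 gave -2.31 for *Nptx2* and -1.46 for *Sh2d4a*, and a pseudocount of 5 gave -0.54, -0.67, -1.01 (*Lmcd1*) and -1.31 (*Vat1l*). Replacing *Dspp* by the other odontoblast markers gave -1.08 for *Lmcd1*, -1.07 for *Nptx2*, -1.19 for *Rab37* and -1.15 for *Vat1l*. Leaving out each library gave -1.54 to -1.17 for *Nptx2* and -2.14 to -1.43 for *Rab37* at equal *Dspp*. At a filter of 10, *Nptx2* and *Sh2d4a* were not tested.

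The slope turned positive with the other odontoblast markers in place of *Dspp* for *Lmcd1* (0.24), *Nptx2* (0.61), *Rab37* (0.29) and *Vat1l* (2.37), and for *Vat1l* with enamel transcripts added (0.08). For *Sh2d4a* it ran from -0.01 (without mutant library 2) to 0.18 with each library left out. The number of genes with a called slope was 1 with a pseudocount of 0.1, with no filter, with the *Xist* term and with the other odontoblast markers, and 0 to 1802 with each library left out.

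Over all genes, 88 were called higher and 31 lower at a filter of 10, and 81 and 30 with the *Dspp* term. Without the libraries lacking Y-linked transcripts, mutant 2 and 3, 22 and 6 were called, 0 relatives higher and 0 neighbours lower, with *Rab3b* at an adjusted p of 0.0506 and *Slc9a3r1* at 0.17 (limma). With each library left out, 108 to 292 were called higher and 20 to 92 lower, the fewest of both without control library 3. Relatives called higher then numbered 1 to 2 (1 at a filter of 10), neighbours lower 0 to 1, and odontoblast markers 0 to 1 higher and 0 to 2 lower. *Rab3b* was called in all 8 fits with a library left out. *Rims2* was called in the 4 of them that tested it, and it did not pass the filter in the rest or at a filter of 10. With no filter 1 neighbour was called higher, *Grin2c* (0.46, adjusted p = 0.0128 in limma). The causes of the other changes were not tested.

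Both groups number their libraries 1 to 4, but deviations from the group means correlated at -0.34, -0.08, 0.22 and -0.43 between equal numbers, so the numbers were not taken as pairs. A replicate block gave 64 genes called higher and 9 lower, beside 232 and 76 without it, and 0 neighbours lower. Differences at equal *Dspp* were then -2.57 for *Vat1l* and -1.19 for *Rab37*. Slopes on *Dspp* with the block were -0.93 ± 0.34 (*Vat1l*), 0.31 ± 0.23 (*Sh2d4a*), 0.04 ± 0.16 (*Rab37*), -0.25 ± 0.18 (*Nptx2*) and -0.08 ± 0.16 (*Lmcd1*).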
